A study of Mus musculus with 30 samples.

Results

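Transcripts of cartilage and bone formation were examined in injured skeletal muscle. The 8 genes were chosen by name, with earlier results of these data known. Sox9, Acan and Hapln1 stood for cartilage, and Runx2, Sp7, Alpl, Ibsp and Bglap for bone. They were 8 of the 26264 genes listed and 8 of the 17136 with enough counts to be tested. RNA came from the tibialis anterior, a muscle of the shin, of male and female mice (Mus musculus). Muscle was sampled 4, 7, 11 or 15 days after volumetric muscle loss, in which a portion of the muscle is taken out, or was uninjured. There were 10 groups, 1 for each sex and time, of 3 libraries each, so that a day had 6. The labels name no strain, age or genotype, and they do not say whether libraries came from separate animals, so the p-values here measure the spread between these libraries only. Codes in the names of the deposited files are shared by some day 7 and uninjured libraries, which may thus come from the same animals; no such pairing was used. The question was how the genes of cartilage and bone formation differed between injured and uninjured muscle over time.

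In cartilage, the transcription factor Sox9 switches on matrix genes, among them Acan, which encodes the large proteoglycan aggrecan, and Hapln1, which encodes the link protein that holds aggrecan on hyaluronan. In bone, Runx2 commits mesenchymal cells to the osteoblast lineage and acts upstream of Sp7, also called osterix. Osteoblasts then make tissue-nonspecific alkaline phosphatase (Alpl), bone sialoprotein (Ibsp) and osteocalcin (Bglap), the last a marker of mature cells. Muscle can form ectopic cartilage and bone after trauma, with mesenchymal progenitors of the muscle as the known source.

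Levels are CPM, counts scaled to the size of their library, after a TMM correction for library composition. Total counts per library were 13089999 to 57277336, lowest on day 15. Muscle fibre transcripts marked the tissue as labelled: 8 genes summed to 304000 to 442000 CPM in uninjured muscle, 9070 to 56900 on day 4, 19400 to 138000 on day 7, 54200 to 129000 on day 11 and 58600 to 119000 on day 15. The library labelled female day 11 replicate 3 carried the Y-linked Ddx3y at 57.4 CPM and the female-specific Xist at 0.109 CPM, against its label, and was kept. In bulk tissue, fewer cells of a type cannot be told apart from less RNA per cell. The comparisons of the 4 days with uninjured muscle share the same 6 uninjured libraries.

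The programme changed in its makeup over the 15 days. Runx2 and Sp7 were highest on day 4, Sox9 was high on days 4 and 7, and Acan was highest on day 11, while Alpl was lowest on day 4, where all its libraries lay below the uninjured ones, and overlapped the uninjured range on days 7, 11 and 15. Hapln1, Ibsp and Bglap stayed at or below 1.08 CPM in every library. With edgeR's quasi-likelihood test and Benjamini-Hochberg adjustment over all tested genes, 4 of the 8 were higher and 1 was lower on day 4 than in uninjured muscle, where 40.1% and 33.0% of all tested genes were. On day 7, 5 were higher and 1 lower (41.6% and 29.9% of all genes), on day 11, 6 were higher and 0 lower (42.7% and 29.7%), and on day 15, 6 were higher and 0 lower (39.7% and 29.3%). Their median log2 difference from uninjured muscle, with scarce genes set at their bounds, was 2.06, 1.83, 2.63 and 2.26 on days 4, 7, 11 and 15, against medians of 0.166, 0.245, 0.318 and 0.262 over all tested genes. With library size alone in place of TMM, 7, 6, 7 and 8 members were called higher and 1, 0, 0 and 0 lower. Over all genes on day 4 that setting called 12603 higher and 1482 lower, and TMM called 6864 and 5662. The libraries of 4, 3, 4 and 2 members lay wholly above the uninjured ones on days 4, 7, 11 and 15 (31.0%, 24.9%, 25.8% and 24.1% of all genes), and 1 lay wholly below on day 4 (25.9%). The counts and medians of members are a description only and are no support for a direction, because Acan, Hapln1, Sp7, Ibsp and Bglap had enough counts for testing through injured libraries alone. The adjusted p-values of these genes against uninjured muscle, given below, carry the same limit. Some genes of the lists described below also passed through injured libraries alone, such as Dlx3 and Tnfsf11, at 0 in uninjured muscle. List counts and medians against uninjured muscle are thus a description only as well. Members and lists were also chosen with earlier results of these data known.

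**Figure D1:**
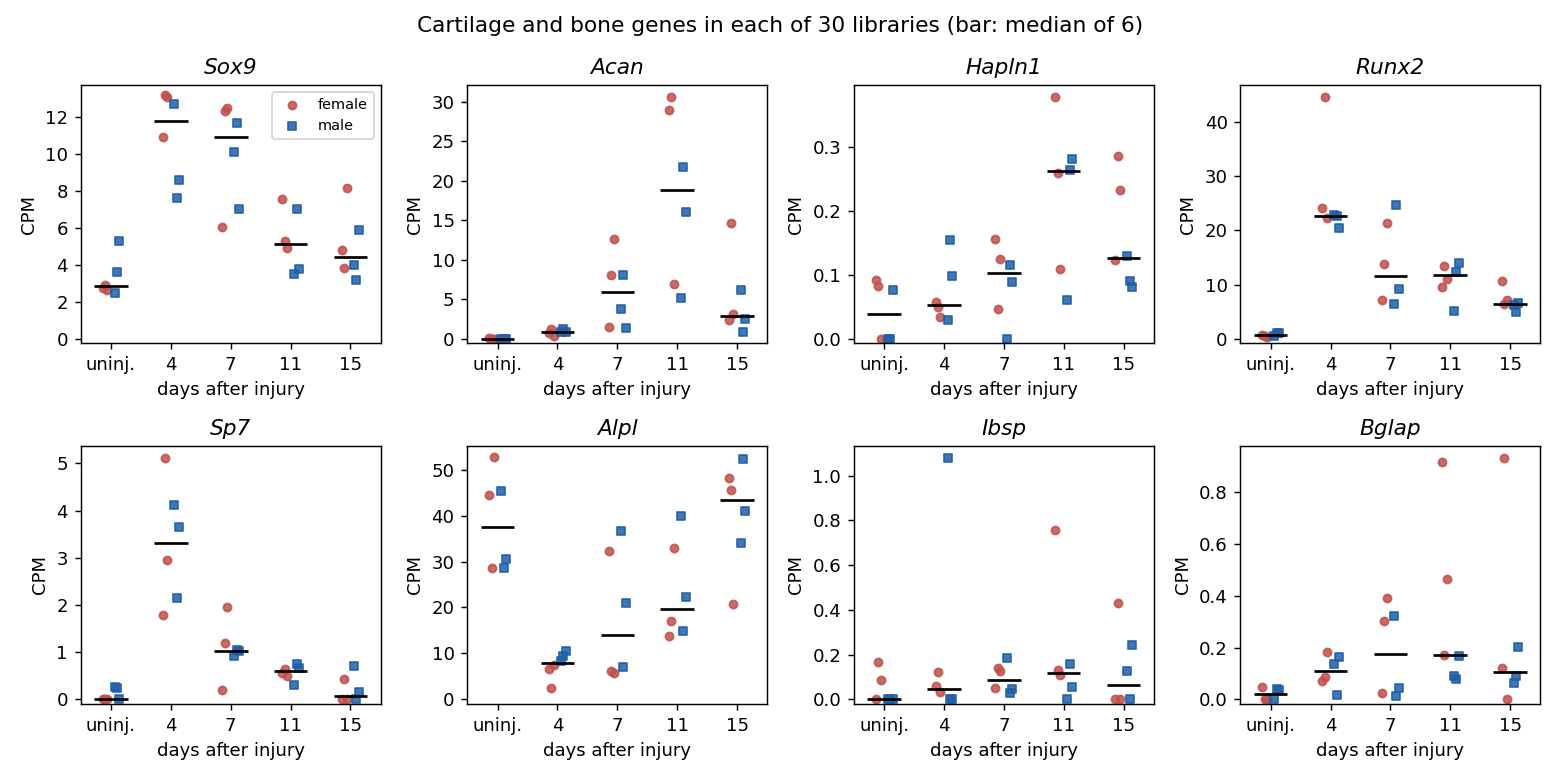
CPM of each of the 8 genes (vertical axes, each with its own scale) in the 6 uninjured libraries and the 6 libraries of each day after injury, with females as circles, males as squares and a bar at the median. Runx2 and Sp7 peak on day 4 and Acan on day 11, and the vertical scales of Hapln1, Ibsp and Bglap end near or below 1 CPM.

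Runx2, the factor that starts the osteoblast programme, was nearly silent in uninjured muscle and well measured after injury. Its lowest, median and highest levels were 0.352, 0.636 and 1.03 CPM in uninjured muscle and 20.5, 22.8 and 44.7 CPM on day 4. They were 6.48, 11.5 and 24.8 CPM on day 7, 5.11, 11.7 and 14.0 CPM on day 11 and 4.92, 6.48 and 10.7 CPM on day 15. All 24 injured libraries lay above all 6 uninjured ones. Runx2 rose by log2 differences of 5.28 ± 0.35 (SE) on day 4, 4.37 ± 0.35 on day 7, 4.03 ± 0.35 on day 11 and 3.37 ± 0.35 on day 15 (edgeR adjusted p of 2.15e-08 or less on each day). Between days it fell, by 0.90 ± 0.30 on day 7 against day 4 (adjusted p = 0.0220) and by 1.91 ± 0.30 on day 15 against day 4 (adjusted p = 2.11e-05), and every day 15 library lay below every day 4 library. The day 7 call was lost when male day 7 replicate 1 or 3, female day 7 replicate 1 or female day 4 replicate 2 was left out (adjusted p = 0.0532 to 0.0853), and in a fit of only the groups compared (-0.87, adjusted p = 0.0746). An exon of Runx2 shares 519 bases with the antisense gene Runx2os1 in the GENCODE annotation, and reads of the 2 genes cannot be told apart without the strand.

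RUNX proteins bind the core ACCACA, and the start-site windows show where these letters stand in the bone genes and how an early bone gene and the late cartilage gene Acan differ in sequence. RefSeq (GRCm38.p6) gave windows of 300 bases around the start for 6 of the 8 genes, not for Sox9 and Sp7. Capitals mark the core on the printed strand; both strands were searched. The Runx2 window is chr17:44814578-44814877 on the minus strand, that of Bglap is chr3:88384417-88384716 on the minus strand, and that of Acan is chr7:79052976-79053275 on the plus strand.
Runx2: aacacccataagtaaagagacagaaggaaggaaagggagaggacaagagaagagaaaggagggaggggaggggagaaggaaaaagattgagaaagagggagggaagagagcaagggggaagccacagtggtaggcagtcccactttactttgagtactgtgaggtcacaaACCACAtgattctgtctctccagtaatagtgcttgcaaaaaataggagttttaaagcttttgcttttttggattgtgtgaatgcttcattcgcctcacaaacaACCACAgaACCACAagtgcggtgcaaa
Bglap: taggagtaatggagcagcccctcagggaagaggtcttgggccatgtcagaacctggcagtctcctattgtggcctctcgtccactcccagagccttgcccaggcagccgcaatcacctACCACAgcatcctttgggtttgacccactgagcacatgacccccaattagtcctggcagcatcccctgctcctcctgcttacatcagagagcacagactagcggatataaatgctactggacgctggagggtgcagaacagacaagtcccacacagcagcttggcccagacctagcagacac
Acan: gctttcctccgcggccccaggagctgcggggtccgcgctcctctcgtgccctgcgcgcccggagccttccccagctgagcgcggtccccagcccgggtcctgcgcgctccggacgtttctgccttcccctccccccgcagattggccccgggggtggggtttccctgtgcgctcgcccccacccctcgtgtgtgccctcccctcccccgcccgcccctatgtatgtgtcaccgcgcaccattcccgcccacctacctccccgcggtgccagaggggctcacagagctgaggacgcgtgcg
The Runx2 window held 3 copies, at -80, 24 and 32 from the start, as 0.183% of 32851 windows of this length held 3 or more. Bglap held 1 copy, at -132, and Hapln1 1 copy on the opposite strand, at -160, as 16.8% of all windows held at least 1. No copy stood in the windows of Acan, Ibsp or Alpl. The SOX core AACAAT, searched on both strands in the same way, stood once, in the window of Ibsp at 19, and in 10.7% of all windows. These are letter matches and not sites of binding.

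Sp7, the osteoblast factor downstream of Runx2, was also highest on day 4, and its median was lower at each later day. In uninjured muscle it had 0 counts in all 3 female libraries and 12 counts in 2 male libraries, so that its lowest, median and highest levels were 0, 0 and 0.266 CPM. On day 4 they were 1.78, 3.31 and 5.12 CPM, on day 7 0.208, 1.03 and 1.95 CPM, on day 11 0.306, 0.609 and 0.741 CPM, and on day 15 0, 0.0811 and 0.711 CPM. Day 4 and day 11 libraries lay above all uninjured ones, and the day 7 and day 15 ranges overlapped theirs. Pooled over libraries, Sp7 was 39.8-fold higher than in uninjured muscle on day 4 (95% counting interval 18.2 to 109, counting error only), 13.6-fold on day 7 (6.1 to 37.5), 6.88-fold on day 11 (2.99 to 19.4) and 3.05-fold on day 15 (1.17 to 9.33). It rose on each day (edgeR adjusted p = 8.8e-07, 7.84e-05, 0.000975 and 0.0362). The day 15 call rested on few counts: of 38 in all, male replicate 1 held 22 and female replicate 2 held 12. It was lost without either of them or any of 4 uninjured libraries, male replicate 3 and female replicates 1, 2 and 3 (adjusted p = 0.0569 to 1), and with halved counts (adjusted p = 0.0623).

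Between days, Sp7 fell by a log2 difference of 1.63 ± 0.56 on day 7 against day 4 (edgeR adjusted p = 0.0295) and by 3.87 ± 0.68 on day 15 against day 4 (adjusted p = 6.21e-05). The day 7 call was lost without male day 7 replicate 1 or 3, female day 7 replicate 1, male day 4 replicate 1 or female day 4 replicate 2 (adjusted p = 0.0514 to 0.0857). Within each library, Sp7 counts per Runx2 count had medians of 0.123, 0.0887, 0.0540 and 0.0122 on days 4, 7, 11 and 15. The ranges were 0.0739 to 0.180 on day 4, 0.0291 to 0.142 on day 7, 0.0446 to 0.0600 on day 11 and 0 to 0.114 on day 15. These ratios are given without a test.

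Macrophage transcripts were likewise highest on day 4, and the summed level of an osteoclast list was above its uninjured range at every day. All 8 macrophage genes were higher than in uninjured muscle at every day, with sums of 25.7 to 36.9 CPM in uninjured muscle, 1470 to 2110 on day 4, 451 to 1460 on day 7, 166 to 1670 on day 11 and 176 to 762 on day 15. Ms4a7, a membrane protein of macrophages, the lysosomal protein gene Cd68 and the chemokine receptor gene Cx3cr1 rose by 10.04 ± 0.83, 7.41 ± 0.47 and 6.40 ± 0.42 on day 4 (edgeR adjusted p of 6.93e-11 or less). Of 11 osteoclast genes, 8, 8, 8 and 6 were higher and 1 lower on days 4, 7, 11 and 15, with sums of 64.8 to 81.0 CPM in uninjured muscle, 188 to 248 on day 4, 125 to 380 on day 7, 84.8 to 302 on day 11 and 108 to 202 on day 15. Of 6 neutrophil genes, 5, 5, 4 and 4 were higher and 0 lower, with sums of 1.22 to 2.41 CPM in uninjured muscle, 43.7 to 68.4 on day 4, 18.7 to 44.1 on day 7, 10.5 to 36.8 on day 11 and 5.68 to 50.2 on day 15. Among all tested genes, 40.1%, 41.6%, 42.7% and 39.7% were higher and 33.0%, 29.9%, 29.7% and 29.3% lower on these days. No gene of the macrophage list was at 0 in an injured group, and the part of these lists in the levels of Runx2 and Sp7 was not tested. Among the osteoclast genes, Atp6v0d2, a proton pump subunit, stood at medians of 25.7 CPM on day 4 and 0.0401 CPM in uninjured muscle, and Acp5, tartrate-resistant acid phosphatase, at 55.3 and 0.375 CPM. Both are also made by activated macrophages. Calcr and Oscar were not called on day 4, at log2 differences of -0.99 ± 0.49 and -0.296 ± 0.375 (edgeR adjusted p = 0.0694 and 0.484). Oscar was called higher on days 7 and 11. Nfatc1, which made up most of the uninjured sum of this list with a median of 61.3 CPM, was lower on day 4, at -0.63 ± 0.12 (edgeR adjusted p = 3.64e-05). Ctsk had medians of 3.59 CPM in uninjured muscle and 60.4, 67.3, 113 and 67.6 CPM on days 4, 7, 11 and 15, a large part of the sums after injury. Ocstamp was higher on day 4 and lower on day 15, at -1.91 ± 0.67 (edgeR adjusted p = 0.0105). Tnfrsf11a, the receptor RANK, rose by a log2 difference of 5.81 ± 0.39 on day 4 (edgeR adjusted p = 9.57e-12), while its ligand Tnfsf11 had 0 counts in uninjured muscle and 359, 205, 104 and 18 on days 4, 7, 11 and 15.

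Sox9, the master factor of cartilage, was the member of the cartilage side already present in uninjured muscle. Its lowest, median and highest levels were 2.48, 2.84 and 5.27 CPM in uninjured muscle, 7.61, 11.8 and 13.2 CPM on day 4 and 6.06, 10.9 and 12.5 CPM on day 7. On day 11 they were 3.52, 5.11 and 7.55 CPM, and on day 15 3.16, 4.41 and 8.15 CPM. All libraries of days 4 and 7 lay above the uninjured ones, and those of days 11 and 15 overlapped them. Sox9 rose by log2 differences of 1.75 ± 0.25 on day 4, 1.62 ± 0.25 on day 7, 0.71 ± 0.25 on day 11 and 0.61 ± 0.25 on day 15 (edgeR adjusted p = 9.41e-07, 3.78e-06, 0.0130 and 0.0352). Against day 4, it fell by 1.15 ± 0.24 on day 15 (adjusted p = 0.000445). The difference of -0.90 ± 0.24 between day 11 and day 7 was not called (edgeR adjusted p = 0.178). The day 11 call was lost without male day 11 replicate 2 (adjusted p = 0.0676), and the day 15 call without any 1 of 6 libraries (adjusted p = 0.0555 to 0.152): male uninjured replicates 1 and 2, female uninjured replicates 1 and 3, male day 15 replicate 3 and female day 15 replicate 3.

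Acan, the aggrecan gene and a direct Sox9 target, went over a far wider range. It was all but absent from uninjured muscle, with 2 counts in 1 of 6 libraries and 0 in the other 5. On day 4 it stood at 0.796, 1.19 and 0.849 CPM in males and 0.696, 1.28 and 0.399 CPM in females. On day 7 it stood at 3.77, 8.12 and 1.29 CPM in males and 1.43, 8.04 and 12.6 CPM in females. The day 7 libraries thus fell into a higher and a lower range, with both sexes in each. On day 11 it stood at 5.17, 21.7 and 16.0 CPM in males and 29.0, 30.6 and 6.95 CPM in those labelled female, the last in the library whose sex genes go against its label. It stood on day 15 at 6.18, 0.902 and 2.55 CPM in males and 2.34, 14.7 and 3.14 CPM in females. All 24 injured libraries lay above all uninjured ones. The spread among libraries of 1 day was wide, and the day 11 range of 5.17 to 30.6 CPM overlapped those of days 7 and 15.

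Pooled counts of Acan were 63.1-fold higher on day 4 than in uninjured muscle (95% counting interval 11.2 to 2510), 483-fold on day 7 (86.6 to 19100), 1340-fold on day 11 (239 to 52800) and 386-fold on day 15 (68.9 to 15300). The intervals are wide because of the 2 uninjured counts. Acan rose on each day (edgeR adjusted p = 0.000162, 3.21e-07, 1.81e-08 and 6.98e-07). It rose further by a log2 difference of 2.72 ± 0.58 on day 7 against day 4 (adjusted p = 0.00191), where no library of the 2 days overlapped, and was 2.43 ± 0.58 higher on day 15 than on day 4 (adjusted p = 0.00188). Neighbouring later days were not separated: day 11 against day 7 gave 1.64 ± 0.56 (edgeR adjusted p = 0.388) and day 15 against day 11 gave -1.93 ± 0.56 (edgeR adjusted p = 0.0587).

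Acan and Runx2 took different courses within the same libraries, as seen in their ratio, which no library scaling can alter. Acan counts per Runx2 count had medians of 0.0318 on day 4, 0.455 on day 7, 1.45 on day 11 and 0.412 on day 15. The ranges were 0.0178 to 0.0524, 0.139 to 0.592, 0.631 to 3.02 and 0.183 to 2.31 in the same order. That of day 15 overlapped those of days 7 and 11, and no others overlapped. On average the log2 ratio was 3.44 higher on day 7 than on day 4, 2.04 higher on day 11 than on day 7, and the difference of day 15 from day 11 was -1.52. The ratio was chosen after its values were seen, so it is a description and is given without a test.

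**Figure D2:**
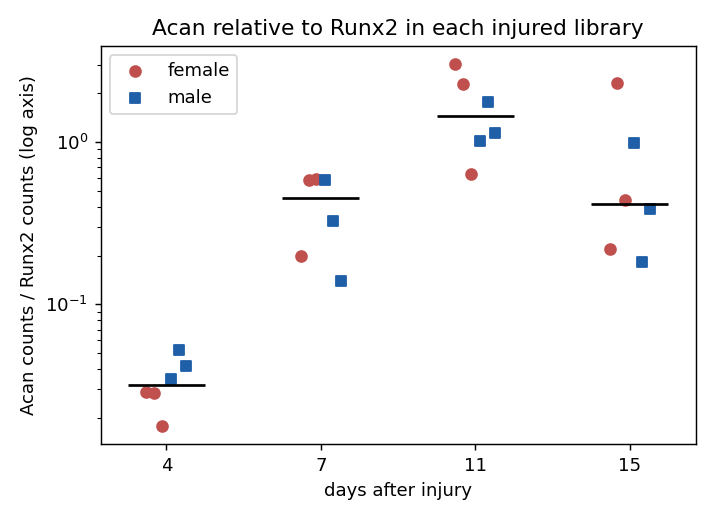
Acan counts divided by Runx2 counts (log axis) in each of the 6 libraries on days 4, 7, 11 and 15 after injury, with females as circles, males as squares and a bar at the median. The medians are 0.0318, 0.455, 1.45 and 0.412, and no library of days 4, 7 and 11 overlaps those of another of these 3 days.

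Tendon transcripts also had their highest median sum on day 11, at 1320 CPM, against 136 CPM in uninjured muscle. Of 6 tendon genes, 4, 5, 6 and 6 were higher than in uninjured muscle on days 4, 7, 11 and 15 and 0 were lower. Their sums were 90.7 to 310 CPM in uninjured muscle, 177 to 465 on day 4, 292 to 807 on day 7, 560 to 1920 on day 11 and 456 to 1890 on day 15. Thbs4 was the largest part by mean, with 106 CPM in uninjured muscle and 259, 400, 878 and 646 CPM on those days. Scx had its highest median on day 4, with 11.9 CPM in uninjured muscle and 44.4, 37.8, 44 and 20.1 CPM on those days. Thbs4, Fmod, Tnmd, Kera and Mkx had their highest median on day 11. Tnmd, the tendon membrane protein tenomodulin, had medians of 3.75 CPM in uninjured muscle and 11.6, 23.1, 135 and 53.5 CPM on days 4, 7, 11 and 15. Kera, encoding the proteoglycan keratocan, and Mkx, a tendon transcription factor, rose by 4.17 ± 0.58 and 3.67 ± 0.46 on day 11 (edgeR adjusted p = 2.86e-06 and 2.3e-07). Markers of fibro-adipogenic progenitors, the mesenchymal cells of muscle, gave 5, 5, 7 and 7 of 8 higher and 1, 0, 0 and 0 lower, with sums of 412 to 577 CPM in uninjured muscle, 493 to 757 on day 4, 527 to 989 on day 7, 756 to 1600 on day 11 and 955 to 2410 on day 15. For both lists, the shares of all tested genes were 40.1%, 41.6%, 42.7% and 39.7% higher and 33.0%, 29.9%, 29.7% and 29.3% lower. Dpt (dermatopontin), Osr1 (a transcription factor) and Col15a1 (a basement membrane collagen) rose by 2.71 ± 0.32, 2.18 ± 0.21 and 2.11 ± 0.17 on day 11 (edgeR adjusted p of 1.85e-07 or less). The part of either list in the level of Acan was not tested.

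Hapln1, which encodes the link protein of aggrecan, stayed near the limit of detection. Its lowest, median and highest levels were 0, 0.0382 and 0.0919 CPM in uninjured muscle, 0.0300, 0.0535 and 0.154 CPM on day 4 and 0, 0.103 and 0.156 CPM on day 7. On day 11 they were 0.0612, 0.262 and 0.379 CPM, and on day 15 0.0811, 0.126 and 0.287 CPM. The pooled counts were 6 in uninjured muscle and 28, 28, 50 and 24 on days 4, 7, 11 and 15. Hapln1 reached enough counts for testing in 5 injured and 0 uninjured libraries, which limits its p-values against uninjured muscle. Hapln1 rose on day 11 by a pooled ratio of 5.37 (1.64 to 27.8, edgeR adjusted p = 0.00329) and on day 15 of 3.85 (1.04 to 21.3, adjusted p = 0.0320). On days 4 and 7 the ratios were 1.65 (0.459 to 8.93) and 2.36 (0.659 to 12.8), and were not called (adjusted p = 0.401 and 0.156), though with library size alone both were (adjusted p = 0.0188 and 0.00596). The day 15 call was lost without any 1 of 5 libraries (adjusted p = 0.0644 to 0.0771): male uninjured replicates 1 and 2, female uninjured replicate 3, male day 15 replicate 1 and female day 15 replicate 2.

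Alpl, the phosphatase that frees phosphate for mineral, ran opposite to Runx2 and Sp7 on day 4. Its lowest, median and highest levels were 28.5, 37.4 and 52.7 CPM in uninjured muscle. They were 2.53, 7.93 and 10.5 CPM on day 4, 5.75, 13.9 and 36.6 CPM on day 7, 13.9, 19.6 and 39.8 CPM on day 11 and 20.7, 43.4 and 52.3 CPM on day 15. Every day 4 library lay below every uninjured and every day 15 library. On day 4 Alpl fell by a log2 difference of 2.40 ± 0.40 under TMM (edgeR adjusted p = 1.53e-05), and with library size alone the difference was -1.11 (adjusted p = 0.00702). On day 7 it fell by 1.10 ± 0.40 under TMM (adjusted p = 0.0173), and with library size alone the difference was -0.068 (adjusted p = 0.865). On day 11 the difference was -0.71 ± 0.40 (adjusted p = 0.114) under TMM and 0.43 (adjusted p = 0.269) with library size alone, and it was called lower in a fit of only the groups compared (-0.76, adjusted p = 0.0244). On day 15 it was 0.08 ± 0.40 (adjusted p = 0.880) under TMM, and with library size alone Alpl was called higher, by 1.14 (adjusted p = 0.00636). Library size alone shifted the median of all genes to 1.47, 1.42, 1.46 and 1.30 on days 4, 7, 11 and 15. At each day Alpl lay below that median.

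From day 4 onward, Alpl rose by 1.30 ± 0.40 on day 7 (edgeR adjusted p = 0.0162) and by 2.48 ± 0.40 on day 15 (adjusted p = 3.53e-05), both against day 4. The day 7 call was lost without male day 7 replicate 1, female day 7 replicate 1 or female day 4 replicate 2 (adjusted p = 0.0616 to 0.153) or in a fit of only the groups compared (1.29, adjusted p = 0.0609), and the fall against uninjured muscle on day 7 without female day 7 replicate 2 (adjusted p = 0.0511). Without the library that went against its sex label, Alpl was called lower on day 11, by a log2 difference of -0.99 (adjusted p = 0.0390).

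**Figure D3:**
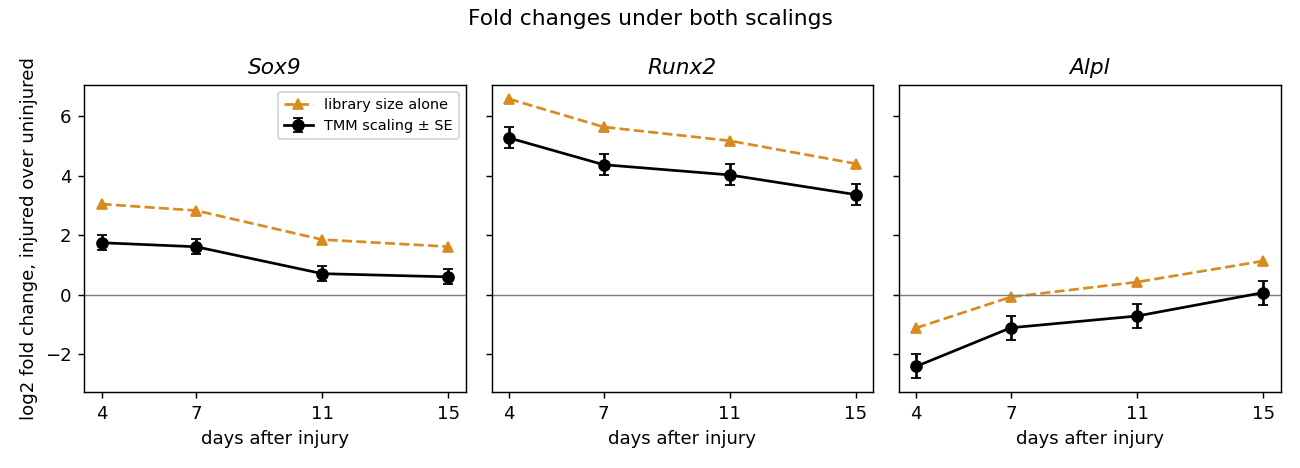
Log2 difference between injured and uninjured muscle (vertical axis) on days 4, 7, 11 and 15 for Sox9, Runx2 and Alpl, under TMM scaling with SE as bars and with library size alone. Sox9 and Runx2 lie above 0 under both scalings on each day, while Alpl lies below 0 on day 4 under both and changes side between scalings on day 11, with -0.71 under TMM and 0.43 with library size alone.

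Alpl and the muscle fibre transcripts varied together across the day 7 libraries. Male replicate 1, male replicate 3 and female replicate 1 had fibre sums of 107100, 134100 and 138300 CPM and Alpl at 36.6, 20.9 and 32.4 CPM. Male replicate 2, female replicate 2 and female replicate 3 had fibre sums of 48120, 50940 and 19420 CPM and Alpl at 6.99, 6.15 and 5.75 CPM. Runx2 and Acan were ordered the other way, at 6.48, 9.25 and 7.15 CPM and 3.77, 1.29 and 1.43 CPM in the first 3 libraries, and 24.8, 13.8 and 21.4 CPM and 8.12, 8.04 and 12.6 CPM in the last 3. The first 3 libraries also held more endothelial transcripts, with sums of 795, 733 and 663 CPM against 471, 473 and 454 CPM. On day 4, female replicate 2 had the lowest fibre sum, 9070 CPM, beside the lowest Alpl at 2.53 CPM and the highest Runx2 at 44.7 CPM. On the later days Alpl did not follow the fibre sums throughout. On day 11 the highest fibre sum, 129400 CPM in male replicate 1, stood beside Alpl at 39.8 CPM. The lowest, 54240 CPM in the library labelled female replicate 3, stood beside 32.9 CPM. On day 15 the 2 lowest fibre sums, 58580 and 72830 CPM in female replicates 1 and 2, stood beside Alpl at 48.1 and 45.6 CPM. Female replicate 3, at 115100 CPM, had that day's lowest Alpl, 20.7 CPM.

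Of the 8 fibre genes, 8, 8, 7 and 7 were lower than in uninjured muscle on days 4, 7, 11 and 15, and none was at 0. All tested genes had shares of 33.0%, 29.9%, 29.7% and 29.3% lower and 40.1%, 41.6%, 42.7% and 39.7% higher. Pvalb and Myh4, of fast fibres, and Ckm, muscle creatine kinase, fell on day 4, with log2 differences of -4.45 ± 0.55, -4.14 ± 0.46 and -4.06 ± 0.48 (edgeR adjusted p of 8.39e-07 or less). Of 8 endothelial genes, 0, 0, 1 and 6 were higher and 5, 2, 2 and 1 lower on days 4, 7, 11 and 15. Their sums were 497 to 850 CPM in uninjured muscle, 384 to 556 on day 4, 454 to 795 on day 7, 628 to 881 on day 11 and 892 to 1280 on day 15. Cldn5, a tight junction protein, Emcn, a sialomucin, and Tek, the angiopoietin receptor, rose by 1.22 ± 0.22, 0.80 ± 0.21 and 0.69 ± 0.18 on day 15 (adjusted p of 0.00158 or less). Endothelial cells and muscle are known to express Alpl. The part of either list in the levels of Alpl was not tested.

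**Figure D4:**
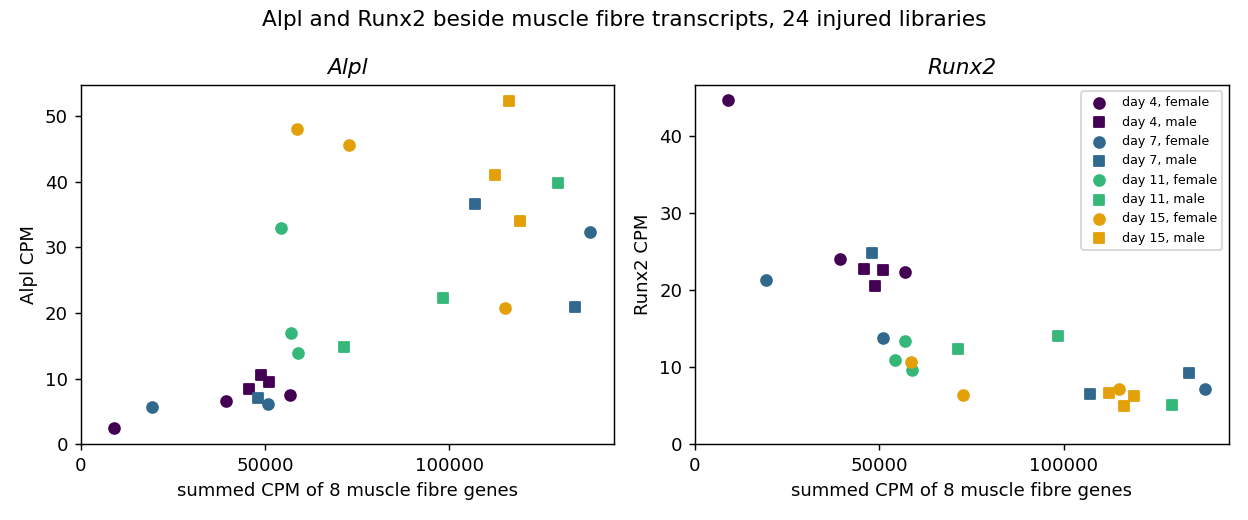
Alpl and Runx2 in CPM (vertical axes) against the summed CPM of 8 muscle fibre genes (horizontal axes) in the 24 injured libraries, coloured by day, with females as circles and males as squares. The day 4 library with the lowest fibre sum, 9070 CPM, has the lowest Alpl, 2.53 CPM, and the highest Runx2, 44.7 CPM. The day 15 library with that day's lowest fibre sum, 58580 CPM, has Alpl at 48.1 CPM.

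Ibsp, a sialoprotein of mineralised matrix, was not called on any day under TMM. Its median level was 0 CPM in uninjured muscle and 0.0456, 0.0884, 0.120 and 0.0647 CPM on days 4, 7, 11 and 15. Its pooled counts were 6 in uninjured muscle and 88, 24, 42 and 22 on days 4, 7, 11 and 15, with pooled ratios of 5.17 (1.66 to 26.0), 2.02, 4.51 and 3.53 (edgeR adjusted p = 0.0850, 0.250, 0.105 and 0.129). With library size alone it was called higher on days 4, 11 and 15 (adjusted p = 0.0101, 0.0204 and 0.0318), and in males alone under TMM on day 4 (adjusted p = 0.0322). Male day 4 replicate 1 held 72 of the 88 counts on day 4, and the difference there changed sign without it. That library, at 1.08 CPM, was the highest of all 30, and the other 5 of day 4 had 0 to 0.123 CPM.

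Bglap, encoding osteocalcin, was scarce as well. Its lowest, median and highest levels were 0, 0.0191 and 0.0460 CPM in uninjured muscle, 0.0154, 0.111 and 0.183 CPM on day 4 and 0.0145, 0.174 and 0.390 CPM on day 7. On day 11 they were 0.0794, 0.171 and 0.916 CPM, and on day 15 0, 0.107 and 0.933 CPM. Every day 11 library lay above every uninjured one. Bglap reached enough counts for testing in 6 injured and 0 uninjured libraries, which limits its p-values against uninjured muscle. With 3 uninjured counts, Bglap had pooled ratios of 5.06 (1.05 to 74.2, edgeR adjusted p = 0.0719) on day 4, 8.26 (1.75 to 120, adjusted p = 0.0316) on day 7, 14.2 (3.08 to 204, adjusted p = 0.00763) on day 11 and 11.9 (2.43 to 176, adjusted p = 0.0150) on day 15. The day 15 call was lost without female day 15 replicate 2 (adjusted p = 0.217), which held 26 of 37 counts. With halved counts both the day 7 and the day 15 call were lost (adjusted p = 0.103 and 0.0540), and DESeq2 called day 4 as well (adjusted p = 0.0361), as did library size alone (adjusted p = 0.00444). The day 7 call was lost without any 1 of 5 libraries (adjusted p = 0.0593 to 0.173): male uninjured replicate 1, female uninjured replicates 2 and 3, male day 7 replicate 1 and female day 7 replicate 3.

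The identity of the Bglap reads is uncertain. Transcripts of Bglap and its neighbour copy Bglap2 were 98.9% identical, and 74.7% of the 50-base stretches of Bglap also stood in Bglap2. How the authors counted reads that fit both is not given in the sources used here. Bglap2 had 0 counts in uninjured muscle and 36, 10, 34 and 18 counts on days 4, 7, 11 and 15. Most low counts in these libraries were even, yet 18 of 26 nonzero Bglap counts were odd, and none was for Hapln1 or Ibsp. The counting intervals and the setting with halved counts presume that both reads of a pair are counted. Both are thus uncertain for Bglap.

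Per kilobase of exon, the order of mean levels among the 8 genes changed over time. In uninjured muscle Alpl stood first at 9.50 CPM per kilobase, then Sox9 at 0.793 and Runx2 at 0.0766. On day 4 Runx2 at 2.96, Sox9 at 2.66 and Alpl at 1.86 CPM per kilobase stood close together, their ranges of 2.32 to 5.06, 1.84 to 3.19 and 0.627 to 2.60 overlapping, with Sp7 next at 0.971, Bglap at 0.176 and Acan at 0.116. On day 11 Alpl at 5.80 was followed by Acan at 2.44, Sox9 at 1.29 and Runx2 at 1.23. On day 15 Alpl at 9.99 stood well above Sox9 at 1.20, Runx2 at 0.791 and Acan at 0.664. Hapln1 was lowest on each day after injury, at 0.0119 to 0.0383 CPM per kilobase.

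Between days the 8 genes did not move as 1 group. On day 7 against day 4, Acan and Alpl were higher and Runx2 and Sp7 lower (18.5% and 16.7% of all tested genes were called). On day 15 against day 4, Acan and Alpl were higher and Runx2, Sp7 and Sox9 lower (25.1% and 27.0% of all genes). On day 11 against day 7, edgeR called 0 members (0.0408% of all genes higher and 0.0175% lower), with 3 at an unadjusted p under 0.05, and DESeq2 called 1 lower, Sox9 (adjusted p = 0.0476). On day 15 against day 11, edgeR called 0 (2.00% and 2.25% of all genes), with 2 at an unadjusted p under 0.05, and DESeq2 called 1 lower, Acan (adjusted p = 0.0402). edgeR also called Acan lower there when male day 11 replicate 1, female day 11 replicate 3, male day 15 replicate 1 or female day 15 replicate 2 was left out (adjusted p = 0.0207 to 0.0358).

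No member was called for sex. In uninjured females against males edgeR and DESeq2 called 0 of 8 (0.642% of all genes in edgeR), with 1 at an unadjusted p under 0.05, Sp7, which had counts in uninjured males only (adjusted p = 0.325). For the sex difference in the response on days 4, 7, 11 and 15, both tools called 0 of 8 (0.0467%, 0.123%, 0.0584% and 0.210% of all genes in edgeR), with 1, 1, 1 and 0 at an unadjusted p under 0.05. The joint edgeR test over the 4 days gave adjusted p of 0.891 to 0.992, and 0.0350% of all genes were called. The library labelled female day 11 replicate 3, whose sex genes go against its label, entered these tests as female, and without it edgeR called 0 of 8 for the day 11 difference as well. With 3 libraries labelled with each sex per day and the spread of Acan and Bglap above, a difference between the sexes may be missed.

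More of the other cartilage matrix genes were called from day 7 on than on day 4. Of 16 tested of 20 listed, 6, 12, 12 and 11 were higher and 2, 2, 2 and 1 lower than in uninjured muscle on days 4, 7, 11 and 15, with median log2 differences of 0.322, 1.80, 1.99 and 1.80. Over all tested genes, 40.1%, 41.6%, 42.7% and 39.7% were higher and 33.0%, 29.9%, 29.7% and 29.3% lower. Col2a1, the main collagen of cartilage, stood at medians of 0.353 CPM in uninjured muscle and 0.484, 1.08, 4.10 and 1.36 CPM on days 4, 7, 11 and 15. It was not called on day 4 (0.53 ± 0.52, edgeR adjusted p = 0.358) and rose by 1.83 ± 0.51, 3.44 ± 0.50 and 2.37 ± 0.51 at the later days (adjusted p = 0.00253, 2.06e-06 and 0.000242). Col11a1, a minor fibril collagen of cartilage, had medians of 0.572 CPM in uninjured muscle and 8.16, 19.3, 41.4 and 17.9 CPM. Comp, a matrix protein of cartilage and tendon, rose by 1.35 ± 0.56, 2.45 ± 0.55, 3.84 ± 0.55 and 3.18 ± 0.55 (adjusted p of 0.0334 or less). Matn4, a matrilin, had 0.901 CPM in uninjured muscle and 1.17, 2.77, 16.7 and 5.51 CPM. Acan, Col2a1, Col11a1 and Matn4 thus all had their highest median on day 11. Other listed genes had it elsewhere: Col9a2 on day 7 (3.32 CPM), Prg4 on day 4 (31.7 CPM) and Hapln3 on day 15 (0.833 CPM). The listed genes not tested, Matn1, Epyc, Cnmd and Snorc, stayed at or below 0.502 CPM in every library, and Snorc had 0 counts throughout. Col10a1, the collagen of hypertrophic cartilage, had 2 uninjured counts and pooled ratios of 54.7 (9.67 to 2170), 30.4 (5.24 to 1220), 24.2 (4.08 to 980) and 22.6 (3.68 to 932), highest on day 4. Col9a1, a collagen that coats cartilage fibrils, was lower on each day and fell by 3.22 ± 0.39 on day 4 (adjusted p = 1.79e-07).

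Among 12 regulators of cartilage, 6, 7, 8 and 10 were higher and 2 lower on days 4, 7, 11 and 15, with median log2 differences of 0.643, 0.741, 1.00 and 1.44 with scarce genes at their bounds. The shares of all tested genes were 40.1%, 41.6%, 42.7% and 39.7% higher and 33.0%, 29.9%, 29.7% and 29.3% lower. As Nkx3-2, at 0 in uninjured muscle, could be tested through injured libraries alone, these counts and medians are a description only. Gdf5, a joint morphogen, had 10 counts in 1 of 6 uninjured libraries and medians of 1.46, 0.773, 1.20 and 3.04 CPM on days 4, 7, 11 and 15. Runx3, which acts with Runx2 in cartilage and is also a lymphocyte factor, had medians of 0.0382 CPM in uninjured muscle and 9.37, 3.07, 1.67 and 1.27 CPM. Pth1r, the parathyroid hormone receptor, rose by 2.49 ± 0.29, 2.84 ± 0.29, 3.05 ± 0.29 and 2.67 ± 0.29 (edgeR adjusted p of 6.69e-08 or less). Sox6, the partner of Sox9 in cartilage and a fibre-type repressor in muscle, fell on each day, to medians of 35.1, 38.5, 33.4 and 34.3 CPM, with 201 CPM in uninjured muscle.

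The bone matrix list was led by genes that many fibroblasts also make. Of 15 tested of 18 listed, 8, 8, 10 and 10 were higher and 4, 3, 3 and 3 lower on days 4, 7, 11 and 15, with median log2 differences of 1.08, 1.74, 2.06 and 1.66 with scarce genes at their bounds. Across all tested genes, 40.1%, 41.6%, 42.7% and 39.7% were higher and 33.0%, 29.9%, 29.7% and 29.3% lower. Since Bglap2, at 0 in uninjured muscle, could be tested through injured libraries alone, these list values are a description only. Col1a1 and Col1a2, the chains of type I collagen, rose by 6.18 ± 0.42 and 5.64 ± 0.39 on day 11 (edgeR adjusted p = 5e-10 and 4.67e-10). Spp1, encoding osteopontin and also made by macrophages, had pooled ratios of 1370, 255, 68.0 and 17.2 on days 4, 7, 11 and 15. Dmp1, a phosphoprotein of bone, had medians of 0.0401 CPM in uninjured muscle and 1.44, 0.756, 0.606 and 0.538 CPM. Phospho1, a phosphatase of mineralising vesicles, fell on each day, to medians of 4.70, 1.48, 1.00 and 1.28 CPM, with 40.0 CPM in uninjured muscle, and its day 15 libraries, unlike those of Alpl, did not overlap the uninjured ones. Ank, a pyrophosphate transporter, and Ostn, the secreted peptide osteocrin, were lower on each day as well and fell by 2.60 ± 0.28 and by 4.16 ± 0.56 on day 4 (adjusted p = 2.29e-08 and 1.05e-06).

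Of 13 tested regulators of bone, 8, 8, 9 and 8 were higher and 1, 2, 2 and 2 lower on days 4, 7, 11 and 15, with median log2 differences of 1.64, 1.59, 1.39 and 1.24 with scarce genes at their bounds. Shares over all tested genes were again 40.1%, 41.6%, 42.7% and 39.7% higher and 33.0%, 29.9%, 29.7% and 29.3% lower. Because Dlx3 and Tnfsf11 could be tested through injured libraries alone, the counts and medians of this list are a description only. Dlx3, a homeobox factor of bone, had 0 counts in uninjured muscle and 208, 120, 122 and 40 counts on days 4, 7, 11 and 15. Twist1 and Twist2, which hold back Runx2, rose by 2.75 ± 0.29 and 1.92 ± 0.34 on day 11 (edgeR adjusted p = 2.14e-08 and 1.8e-05). Bmp2, a growth factor that induces bone, rose by 1.64 ± 0.25 on day 4 and 2.43 ± 0.25 on day 15 (adjusted p = 2.27e-06 and 1.67e-08). Cbfb, the partner subunit of RUNX proteins, had medians of 114 CPM in uninjured muscle and 95.2, 107, 84.9 and 62.5 CPM.

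**Figure D5:**
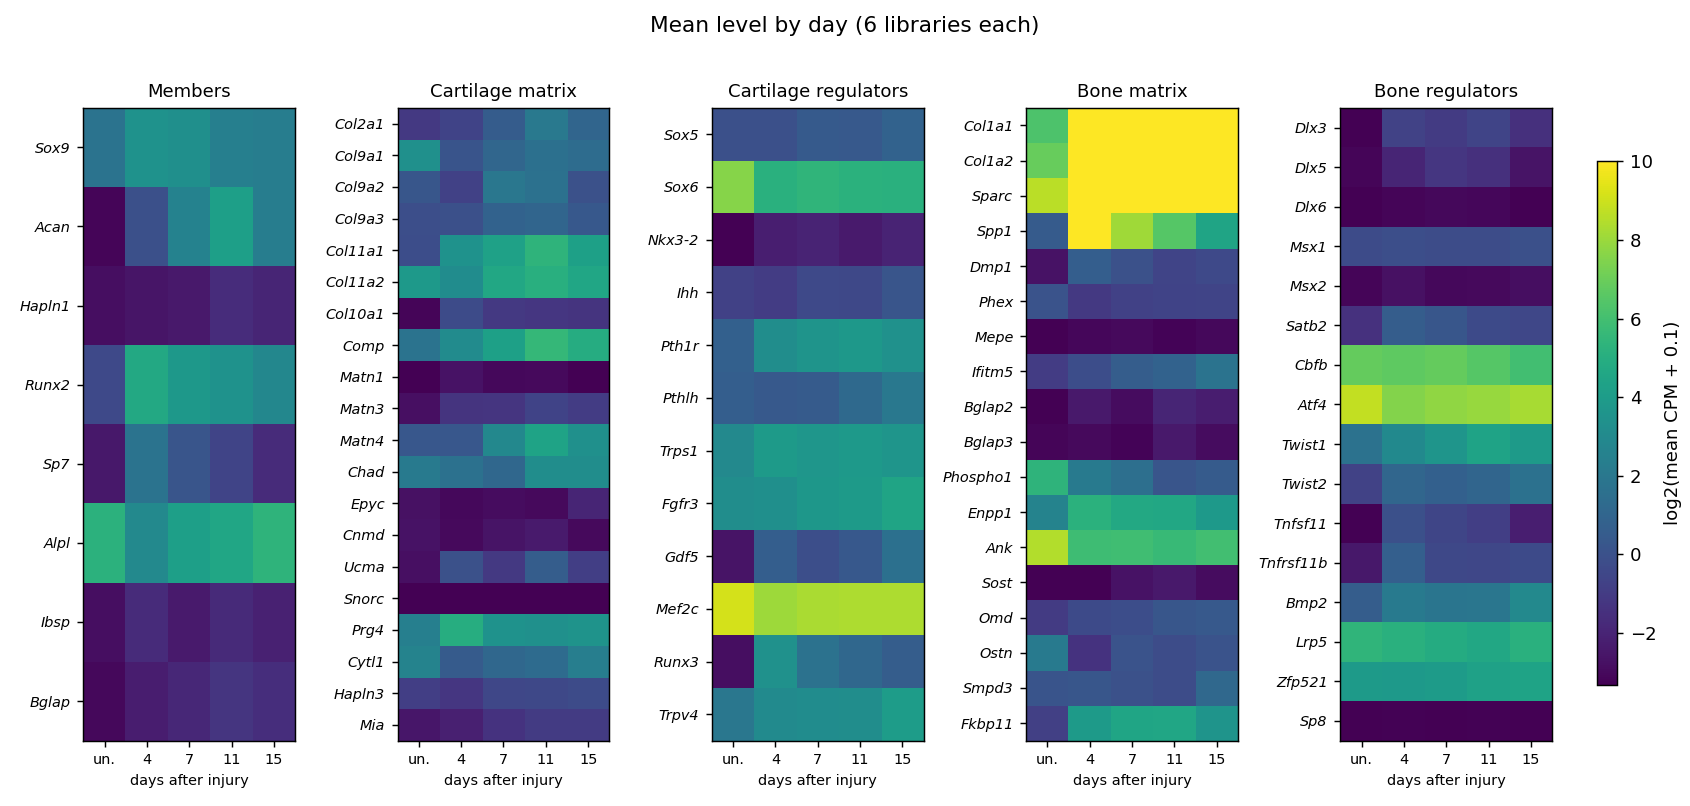
Colour gives log2(mean CPM + 0.1) over 6 libraries in uninjured muscle and on days 4, 7, 11 and 15, with 1 row for each of the 8 genes and for the genes of the lists of cartilage matrix, cartilage regulators, bone matrix and bone regulators. Values above 10 are drawn at 10. Runx2, Sp7 and Spp1 are brightest on day 4 and Acan, Col2a1 and Matn4 on day 11, while Phospho1 and Sox6 are brightest in uninjured muscle.

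Across the 10 group means of log2 CPM, the genes most like each member among 13102 candidates were found by Pearson's r, given as a description over points that share their libraries. Acan was most like Rspo2 (0.988), Fjx1 (0.986) and Eva1b (0.984). Runx2 was most like Birc5 (0.998), Tyms (0.998) and Cd48 (0.997), and Sp7 like Slfn9 (0.987), Slc36a1 (0.986) and Kif24 (0.983). Sox9 was most like Jpt1 (0.966), Mid1 (0.962) and Fgfr4 (0.962), and Alpl like C1qtnf9 (0.996), Cox7a1 (0.985) and Sult1a1 (0.981). Hapln1 was most like Gbp3 (0.954), Bdh2 (0.934) and Cda (0.925), Ibsp like Plbd2 (0.869), Tmem214 (0.868) and Rab40c (0.834), and Bglap like Smg6 (0.974), Isg20 (0.958) and Oas1b (0.948), each from few counts of the member. The members themselves were left out of the candidates, so likeness between members was not examined.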

How the data were processed

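Per the labels, RNA was sequenced from total RNA of tibialis anterior muscle, and a commercial laboratory extracted it and built the libraries. Per the submitters' processing notes STAR, edgeR and mm39 were used, with no versions. The deposited files hold raw counts per gene symbol, 1 per library, and per the file headers each count came from an aligned file. The sources used here do not name the counting program, annotation or strand setting. Between 65.5 and 77.5% of low counts were even, as when both reads of a pair are counted, so counting intervals used halved counts and cover counting error only. The floor was 6 counts over a group.

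Genes were kept by filterByExpr over the 10 groups, scaled with TMM and fitted with edgeR 4.0.16 in R 4.3.3 (glmQLFit and glmQLFTest, 30 libraries in 1 fit, both sexes weighted equally). P-values were adjusted by Benjamini-Hochberg over 17136 genes, with 0.05 as the limit for a call. SE are Wald errors of that fit. RLE scaling, library size alone, no filter, CPM above 1 in 3 libraries, DESeq2 1.42.0, only the groups compared, a replicate block, halved counts and leaving out each library were tried as alternatives. The test was tried on simulated data with 200 changed genes.

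The members and gene lists were chosen with earlier results of these data known. The neutrophil list was given by counts and sums alone. For each other list described, the 3 called genes with the largest change at its day of most calls were named, among those with a mean CPM of 1 or more. For each member, the 3 genes most like it were named. Other genes were named after their values were seen. Exon lengths and overlaps came from the GENCODE annotation and start-site windows from RefSeq (GRCm38.p6).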

Additional observations from a re-analysis of the deposited data

Results flagged for a closer look

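In each group of 6 libraries at 1 day, the highest and lowest library of every gene was compared with the others by Dixon's criterion on CPM. Of 40 groups of values, 5 held a library set apart. Chance flags about 1 in 20 groups of normally distributed values, a rate that does not hold for groups near 0 counts. A group with counts in 1 library alone is always flagged, as Acan in uninjured muscle was. Acan in uninjured muscle stood at 0.0919 CPM in female replicate 1, from 2 counts, and at 0 in the other 5. Runx2 at day 4 stood at 44.7 CPM in female replicate 2, and the next library had 24.1 CPM. Ibsp at day 4 stood at 1.08 CPM in male replicate 1, from 72 counts, and the next library had 0.123 CPM. Ibsp at day 11 stood at 0.758 CPM in female replicate 1, and the next had 0.159 CPM. Bglap at day 15 stood at 0.933 CPM in female replicate 2, and the next had 0.203 CPM.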

How the results depend on the processing

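Each member's result against uninjured muscle, called or not, and each call between days were compared with those of the main fit. These results held in 41 of 41 cases under RLE scaling, without the filter and with the replicate block. They held in 29 of 29 with CPM above 1 in 3 libraries, which left 5 members, and in 40 of 41 under DESeq2. With library size alone 32 of 41 held, 7 were newly called, 1 was lost and 1 reversed, Alpl at day 11 (0.43). That setting called 7 members higher at day 4 and 0 lower at day 7. With only the groups compared, 1 was lower at day 11 (Alpl), 3 were higher at day 15, and 1 was higher and 1 lower at day 7 against day 4, where Alpl and Runx2 lost their calls. With halved counts, 3 were higher at day 15, where Sp7 and Bglap lost theirs, and 1 lower at day 15 against day 11. DESeq2 called 1 lower at day 11 against day 7 (Sox9) and 1 lower at day 15 against day 11 (Acan). The cause was not tested, though the fits with only the groups compared and with halved counts tested fewer members.

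With 1 library left out, 446 of 492 such results, called or not, held. Members called higher were 4 to 6, 4 to 6, 5 to 6 and 3 to 6 at days 4, 7, 11 and 15, and lower 1, 0 to 1, 0 to 1 and 0. At day 7 against day 4 they were 1 to 2 higher and 0 to 2 lower, and at day 15 against day 11 0 higher and 0 to 1 lower. The difference of Alpl at day 15 was -0.0300 to 0.225 and that of Ibsp at day 4 was -0.13 to 3.78. The log2 ratio of Acan to Runx2 at day 15 against day 11 was -1.97 to -1.23.

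Replicate numbers did not pair the libraries: the mean correlation of residuals was 0.0125 over 135 same-numbered pairs and -0.00633 over the 270 others, and 12 of 30 libraries correlated best with their own number. The replicate block changed no call of a member. It gave 4 higher and 1 lower at day 4, 5 and 1 at day 7, 6 and 0 at day 11 and 6 and 0 at day 15. Depth limits Hapln1, Ibsp and Bglap most, with 22 to 88 pooled counts per day after injury, and Sp7 at day 15, with 38.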
